A study of Mus musculus with 8 samples.

Results

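Glutamate receptor mRNA was followed for 3 days in cultured mouse oligodendrocyte precursor cells (OPCs), the glial progenitors that become myelin-forming oligodendrocytes (OLs). The genes are the 10 whose symbols in the expression table are *Gria1*, *Gria2*, *Gria3*, *Gria4*, *Grik2*, *Grik4*, *Grin1*, *Grin3a*, *Grm5* and *Grm7*, out of 23427 genes listed there. They were chosen by name, with earlier results of these data known. FPKM is fragments per kilobase of transcript scaled to a fixed total of mapped fragments, a level corrected for gene length and sequencing depth. Each of the 10 was above the detection limit used here, reaching 1 FPKM in 2 or more libraries. In all, 12208 genes met that limit.

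All cells were wild type, of strain C57BL/6J, and came from the cerebral cortex of pups at postnatal day 7, pooled from 3 pups per preparation and captured on an antibody to the OPC surface receptor PDGFRα. Day 0 is the culture at the switch from growth medium to medium with the thyroid hormone T3 and without growth factors, and Day 1, Day 2 and Day 3 are the following days in that medium. There were 8 mRNA sequencing libraries, 2 per day, and the question was how the transcriptome changes along differentiation. No untreated culture kept in growth medium to Day 3 was analysed here. Days in culture, T3 treatment and growth factor withdrawal therefore cannot be told apart. The study describes its culture RNA as coming from independent replicates. The p-values rest on the spread between the 2 libraries of a day, pooled over all days and drawn toward that of genes of similar level.

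Glutamate opens ionotropic receptors, which are ion channels, and activates metabotropic receptors, which signal through G proteins. AMPA receptors are tetramers of the *Gria* products, and channels that lack the edited *Gria2* product let calcium pass. Kainate receptors are built from the *Grik* products and NMDA receptors need the *Grin1* product, while *Grm5* encodes a group I receptor coupled to Gq and *Grm7* a group III receptor coupled to Gi. OPCs are known to receive synapses from neurons and to carry AMPA and kainate receptors, and glutamate receptor expression is known to decline as they mature.

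The 10 receptor genes moved in both directions. *Gria2* had the highest mean of the 10 at the start and at the end, but the order below it changed. On Day 0 the highest mean levels were those of *Gria2* (62.6 FPKM), *Gria3* (37.1), *Grm5* (26.6) and *Gria4* (26.2), and the lowest was that of *Grm7* (0.897). On Day 2 the mean of *Grm7* (35.4 FPKM) was above that of *Gria2* (30.8), but their replicates overlapped. On Day 3 *Gria2* was highest at 34.6 FPKM, and *Grm7* at 28.8 and *Grik2* at 21.9 came next. Below these were *Gria4* at 12.9, *Grm5* at 6.51, *Gria1* at 5.45 and *Gria3* at 4.62. The replicates of *Grm5* and *Gria4* overlapped on Day 0, as did those of *Grm7* and *Gria1*, so neither pair could be ordered. The 2 NMDA receptor genes ended lowest, at 0.522 FPKM for *Grin1* and 0.567 for *Grin3a*, and their replicates also overlapped.

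**Figure D1:**
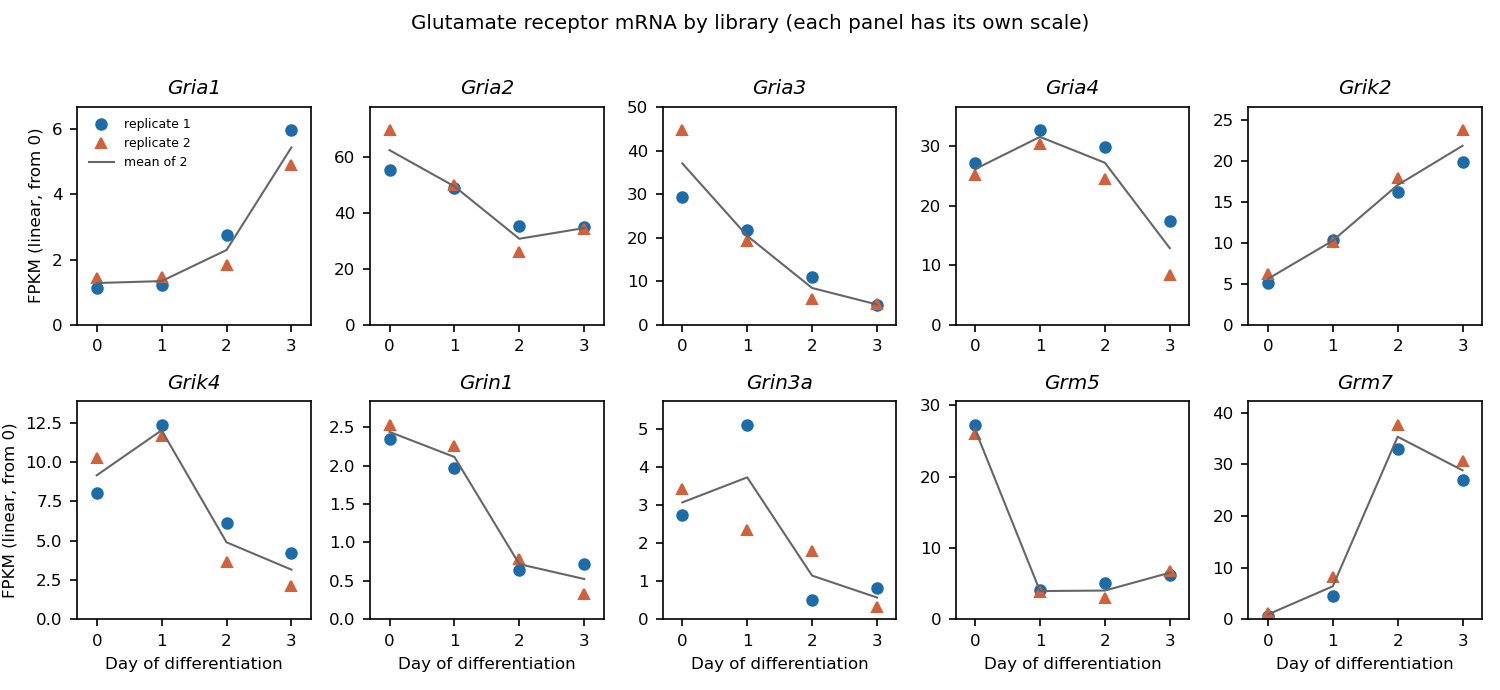
FPKM of each of the 10 glutamate receptor genes (vertical axis, linear and from 0, with a scale of its own in each panel) by day of differentiation (horizontal axis), with 1 symbol per library and a line through the mean of the 2 libraries of a day. *Grm7* climbs from 0.624 and 1.17 FPKM on Day 0 to 27.0 and 30.7 on Day 3, *Grm5* drops within the first day, and *Gria3* declines on every day.

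Chosen for display were *Gria2*, the most abundant of the 10 genes, and genes that ended at opposite sides of the comparison of Day 3 with Day 0. Of the latter, *Grik2* and *Grm7* were higher and *Grik4* was lower. The promoter sequences of these 4 genes are shown here so that they can be read beside the values. Each is the 250 bases upstream of a RefSeq transcript start in GRCm38.p6, 5′ to 3′ on the strand of the gene: chr3:80802836-80803085 (minus strand) for *Gria2*, chr10:49788755-49789004 (minus) for *Grik2*, chr9:42944372-42944621 (minus) for *Grik4*, and chr6:110645262-110645511 (plus) for the first of the windows of *Grm7*. Capitals mark GGGCGG, the GC box that SP factors bind, which was searched on both strands with AGGTCA (a thyroid hormone receptor element), TTCAGCACC (the left part of the neuronal silencer element RE1) and ACAAT (the core of SOX sites). None of these motifs overlapped another in the windows shown.
*Gria2*: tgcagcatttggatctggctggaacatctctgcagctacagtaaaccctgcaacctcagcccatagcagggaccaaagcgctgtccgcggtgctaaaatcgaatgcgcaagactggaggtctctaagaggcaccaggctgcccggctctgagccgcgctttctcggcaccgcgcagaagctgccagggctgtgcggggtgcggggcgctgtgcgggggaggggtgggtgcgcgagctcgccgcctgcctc
*Grik2*: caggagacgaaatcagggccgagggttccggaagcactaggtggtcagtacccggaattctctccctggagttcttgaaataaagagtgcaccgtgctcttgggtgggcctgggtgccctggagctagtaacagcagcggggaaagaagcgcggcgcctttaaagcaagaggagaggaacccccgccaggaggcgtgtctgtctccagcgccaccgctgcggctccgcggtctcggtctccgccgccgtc
*Grik4*: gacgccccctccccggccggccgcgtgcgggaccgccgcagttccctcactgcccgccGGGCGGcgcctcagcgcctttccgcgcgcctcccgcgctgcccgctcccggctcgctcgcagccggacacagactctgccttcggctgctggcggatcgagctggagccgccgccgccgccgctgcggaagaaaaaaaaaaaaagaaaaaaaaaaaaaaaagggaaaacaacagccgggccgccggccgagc
*Grm7*: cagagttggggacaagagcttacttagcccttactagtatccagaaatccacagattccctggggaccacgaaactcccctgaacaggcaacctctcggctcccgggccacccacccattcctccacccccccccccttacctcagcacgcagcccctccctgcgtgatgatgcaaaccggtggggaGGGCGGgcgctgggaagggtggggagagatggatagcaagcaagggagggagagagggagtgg
The GC box was found in 1 copy each upstream of *Grm7* and *Grik4*, which moved in opposite directions, and in 32.7% of the 32851 mouse promoter windows of the same length. None of the other 3 motifs was present in these 4 windows. They were present in 14.0% (AGGTCA), 0.301% (TTCAGCACC) and 27.7% (ACAAT) of all windows. Of the 10 genes, 6 had a window in the RefSeq table, and of the 2 not shown *Grin1* held 1 ACAAT and *Gria4* none of the 4 motifs. A match describes letters in a window and is not a measured binding site. *Gria1*, *Gria3*, *Grin3a* and *Grm5* had no window.

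Between Day 0 and Day 3, 3 of the 10 genes rose (*Gria1*, *Grik2* and *Grm7*) and 7 fell (*Gria2*, *Gria3*, *Gria4*, *Grik4*, *Grin1*, *Grin3a* and *Grm5*), at an adjusted p under 0.05 in limma, adjusted over all 12208 genes. The background in that comparison was high, with 12% of all genes tested called higher and 26.3% called lower. The 10 genes were chosen with earlier results of these data known, so their count does not stand for glutamate receptor genes in general. The replicates of Day 0 and Day 3 did not overlap for any of the 10 genes, as for 71.4% of all genes tested. The median log2 fold change of all genes tested was −0.31, and that of the 10 receptor genes was −1.12. In a bulk culture, fewer cells that carry a transcript and less of it per cell cannot be told apart.

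Because the median gene was lower on Day 3, the balance of higher and lower calls depended on scaling. Over all genes tested, 31.3% of the calls were higher with the values as deposited and 51.1% after median ratio scaling, which moved the median log2 fold change to −0.04. With that scaling the same 3 receptor genes were called higher and 5 were called lower, the calls of *Gria4* and *Grin3a* being lost. No receptor gene changed direction between Day 0 and Day 3 under any scaling tried. The calls of 5 genes (*Gria1*, *Gria3*, *Grik2*, *Grm5* and *Grm7*) were kept under every alternative and with each of the 8 libraries left out in turn. The number of the 10 called was 6 without Day 0 replicate 1, 5 without Day 0 replicate 2, 9 without Day 3 replicate 1 and 6 without Day 3 replicate 2.

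Day by day, fewer steps passed the test. From Day 0 to Day 1, *Grik2* and *Grm7* were higher and *Grm5* was lower, against 5.04% of all genes tested called higher and 7.56% called lower. From Day 1 to Day 2 only *Grm7* of the 10 passed, as higher, where 2.16% of genes were called higher and 1.73% lower. From Day 2 to Day 3 limma called 0 of the 10, with 0.246% of genes called higher and 0.0491% lower, and 2 higher and 2 lower at an unadjusted p under 0.05. Fits with other settings also called 0 there unless a library was left out. The moderated F test for any difference among the 4 days called 9 of the 10, all but *Grin3a* (adjusted p = 0.0553), against 35.2% of genes tested. The steps share libraries with each other and with the comparison of Day 3 with Day 0, so they are not independent.

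**Figure D2:**
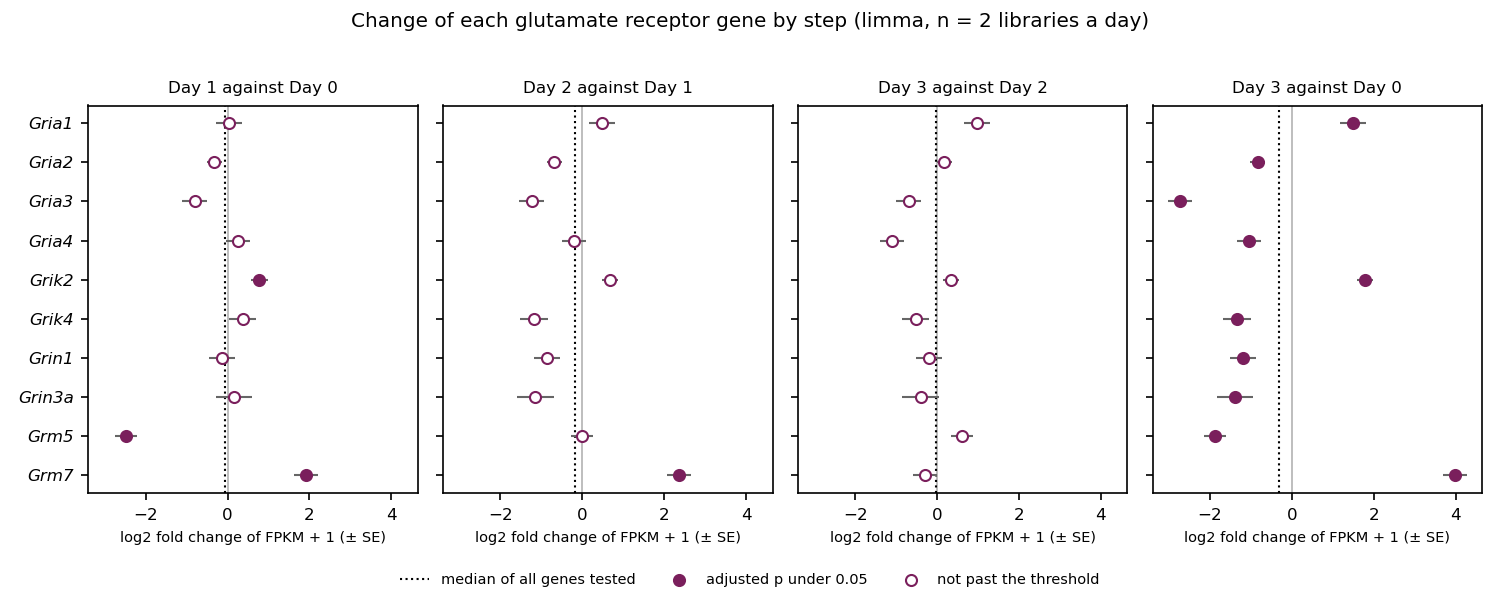
Log2 fold change of FPKM + 1 (horizontal axis, with standard errors from limma) for the 10 genes in each daily step and over the whole course, with 2 libraries a day. Filled points passed an adjusted p of 0.05, and the dotted line is the median of all genes tested, at −0.31 in the comparison of Day 3 with Day 0. In the first step *Grm5* stands at −2.48 and *Grm7* at 1.92, and in the last step none of the points is filled.

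The cultures became more OL-like over the same days, so the receptor changes run alongside a change of cell state. The summed FPKM of 5 OL genes (*Mbp*, *Mog*, *Mag*, *Cnp* and *Mobp*) was 549 and 508 on Day 0 and 12374 and 17214 on Day 3, and all 5 rose. The sum of *Pdgfra*, *Cspg4* and *Gpr17* was 774 and 740 on Day 0 and 215 and 124 on Day 3, and all 3 fell. *Gpr17* first rose, from 232.5 and 278.7 FPKM on Day 0 to 454.3 and 448.6 on Day 1. It made up most of the Day 3 sum, at 185.0 and 116.4 FPKM. Sequencing was shallow, at an estimated 960000 to 1530000 fragments per library with the Day 3 libraries lowest, which gives single-digit fragment numbers for the weakest receptor genes. The exons of *Gria2*, *Gria3*, *Gria4* and *Grik4* share 111, 85, 19 and 59 bases with small annotated genes on the same strand, whose reads cannot be told apart from theirs in those stretches.

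Transcripts of other cell types were also present. The summed FPKM of 9 neuronal genes was 10.5 and 18.6 on Day 0, between 2.97 and 6.54 on Day 1 and Day 2, and 2.50 and 4.59 on Day 3. Of these, *Gad1* and *Slc17a6* were at 0 in every library, 4 could be tested, and *Nefl* and *Nefm* fell, as 7 of the receptor genes did. The part of neuronal RNA in the fall of the receptor genes was not tested.

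The summed FPKM of 7 astrocyte genes differed between replicate numbers on every day, and 6 of the 7 were higher in replicate 2 on all 4 days. From Day 0 to Day 3 the sum was 88.7, 160.9, 122.2 and 132.8 in the libraries numbered 1, and it climbed from 303.5 through 498.2 and 610.4 to 900.0 in those numbered 2. In limma 0 of the 7 were called between Day 0 and Day 3 (also 0 at an unadjusted p under 0.05), but with the replicate number as a block *Gfap* (adjusted p = 1.3e-04) and *Aqp4* (adjusted p = 7.35e-04) were called higher on Day 3. Among the receptor genes, *Grm7* was higher and *Gria4* lower in replicate 2 on 4 of 4 days. The sum of *Pdgfra*, *Cspg4* and *Gpr17* was also lower in replicate 2 on every day, with 538 and 463 on Day 1. The sum of the 5 OL genes was lower in replicate 2 on Day 0 but higher later, with 1508 and 2029 on Day 1. The parts of astrocyte RNA and of cell state in these replicate differences of *Grm7* and *Gria4* were not tested. Within replicate 1 the log2 difference of Day 3 from Day 0 was 4.11 for *Grm7* and −0.61 for *Gria4*, and within replicate 2 it was 3.87 and −1.49. All 10 genes had the same direction in both replicate numbers. The 5 microglial genes summed to at most 2.51 FPKM (*Cx3cr1*, *Csf1r*, *Aif1* and *C1qa* at 0 throughout), the 3 endothelial genes to at most 0.428 (*Cldn5* at 0) and the 3 mural genes to at most 2.20 (*Rgs5* at 0).

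Among the AMPA receptor genes, *Gria2* (chr3:80681450-80802835, minus strand) had the highest mean on every day but overlapped *Gria4* on Day 2. The edited *Gria2* product makes the channel impermeable to calcium. Levels of the gene were 55.4 and 69.8 FPKM on Day 0 and 49.1 and 50.1 after 1 day. They were 35.4 and 26.2 after 2 days and 34.9 and 34.4 after 3 days. Both Day 3 values lay below every value of Day 0 and Day 1 and within the Day 2 range. The fall over the 3 days was −0.83 on the log2 scale (SE 0.18, adjusted p = 0.00828), of which −0.51 remained after the median of the genes tested was subtracted. Without Day 0 replicate 2 the value was −0.66 and the call was lost (adjusted p = 0.0708).

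*Gria3* (chrX:41400854-41678601, plus strand), another pore-forming AMPA subunit, fell most of the 10. Its levels were 29.4 and 44.7 FPKM on Day 0, 21.7 and 19.1 after 1 day, 10.9 and 5.93 after 2 days and 4.41 and 4.82 after 3 days, which correspond to 234 and 285 fragments on Day 0 and 25 and 24 on Day 3. The replicates of each day were lower than those of the day before, without overlap. Over the 3 days the log2 fold change came to −2.73 (SE 0.30, adjusted p = 3.44e-04), the 276th largest fall of the 12208 genes tested. No single step passed the test, with −0.80 (adjusted p = 0.129) in the first and −1.23 (adjusted p = 0.0639) in the second. Without Day 2 replicate 1 the second step passed, at −1.62 (adjusted p = 0.0494).

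*Gria4* (chr9:4417896-4796234, minus strand), a subunit typical of immature circuits and glia, held its level until Day 2. It stood at 27.2 and 25.1 FPKM on Day 0, 32.7 and 30.4 after 1 day, 29.9 and 24.5 after 2 days and 17.4 and 8.29 after 3 days. The Day 3 libraries were below all others, and they differed from each other by more than those of any other day. Day 3 differed from Day 0 by −1.05 on the log2 scale (SE 0.29, adjusted p = 0.0228). The call was lost without Day 0 replicate 1 (−0.997), Day 0 replicate 2 (−1.11) or Day 3 replicate 2 (−0.56), with adjusted p between 0.0790 and 0.114, and with median ratio scaling (−0.75, adjusted p = 0.0671).

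*Gria1* (chr11:57011387-57330244, plus strand), the subunit best known from hippocampal plasticity, was the only AMPA receptor gene of the 4 that rose. It was low at the start, at 1.14 and 1.42 FPKM on Day 0. Day 1 gave 1.22 and 1.46 FPKM, Day 2 gave 2.75 and 1.83, and Day 3 gave 5.98 and 4.91. By transcript length these are about 9 to 10 fragments per library on Day 0 and 25 to 36 on Day 3. Day 0 and Day 1 overlapped, and both Day 3 values were above all others. The rise over the course was 1.50 on the log2 scale (SE 0.31, adjusted p = 0.00638).

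The make-up of the AMPA receptor mRNA changed with these movements. The summed FPKM of the 4 genes was 127.1 ± 19.8 on Day 0 (SD, n = 2), 102.9 ± 2.55 on Day 1, 68.8 ± 14.6 on Day 2 and 57.6 ± 7.33 on Day 3. The share of *Gria3* in the sum was 26.0% and 31.7% on Day 0 and 7.03% and 9.21% on Day 3, and that of *Gria1* was 1.01% in both libraries of Day 0 and 9.53% and 9.38% on Day 3. *Gria2* held 49.2% of the sum on Day 0, 44.8% on Day 2 and 60.6% on Day 3 (means of 2 libraries). The share of *Gria4* went from 20.9% on Day 0 to 39.9% on Day 2 and back to 21.8% on Day 3. Shares within a library do not depend on scaling between libraries, and they were not tested.

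**Figure D3:**
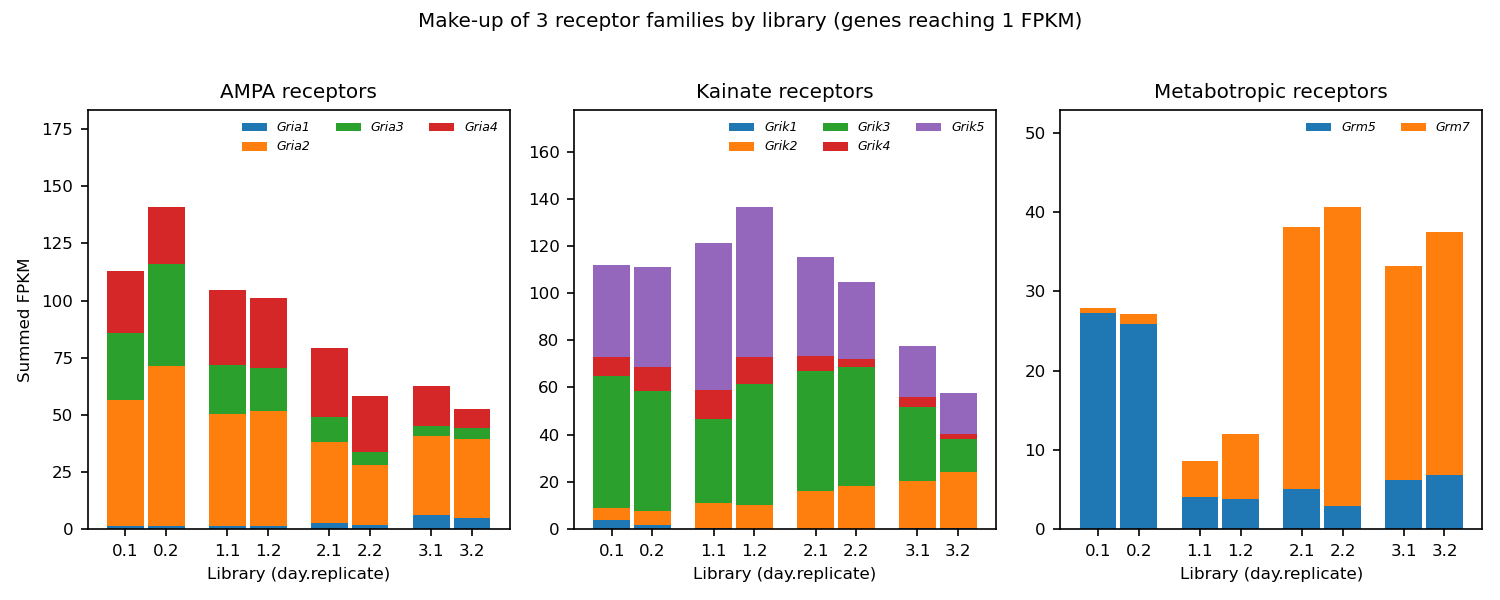
Summed FPKM of the AMPA, kainate and metabotropic receptor genes that reach 1 FPKM (vertical axes, from 0) in each library (horizontal axis, day and replicate number), stacked by gene. The AMPA bars shrink from 113.1 and 141.1 on Day 0 to 62.8 and 52.4 on Day 3, and the metabotropic bars turn from almost wholly *Grm5* to mostly *Grm7*.

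The 2 kainate receptor genes moved apart. *Grik2* (chr10:49094833-49788766, minus strand), which encodes a subunit able to form a channel alone, was at 5.04 and 6.13 FPKM on Day 0, 10.4 and 10.1 after 1 day, 16.2 and 17.9 after 2 days and 19.9 and 23.8 after 3 days. Each day lay above the day before it without overlap. The change over the 3 days was 1.79 on the log2 scale (SE 0.20, adjusted p = 3.58e-04). The first step passed the test at 0.78 (SE 0.20, adjusted p = 0.0392), but this call was kept only without either Day 3 library and was lost without any of the other 6, with values between 0.66 and 0.90 and an adjusted p of up to 0.198.

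*Grik4* (chr9:42518135-42944493, minus strand), a high-affinity subunit that needs a partner such as the *Grik2* product, was at 8.04 and 10.3 FPKM on Day 0, 12.4 and 11.7 after 1 day, 6.12 and 3.66 after 2 days and 4.21 and 2.09 after 3 days. These values rest on 43 and 44 fragments on Day 0 and 16 and 7 on Day 3. Both Day 3 libraries were below both Day 0 libraries, while Day 2 and Day 3 overlapped. The fall was −1.33 on the log2 scale (SE 0.34, adjusted p = 0.0153). It was −1.49 without Day 0 replicate 1, −1.17 without Day 0 replicate 2 and −0.96 without Day 3 replicate 2, and none of these passed (adjusted p between 0.0530 and 0.104).

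Most kainate receptor mRNA belonged to genes outside the 10. *Grik3* and *Grik5* are named here after their values were seen. Their mean shares of the summed FPKM of the 5 *Grik* genes were 48.0% and 36.3% on Day 0. On Day 3 their mean shares were 32.6% and 29.0%, with 41.0% and 24.1% for *Grik3* in the 2 libraries. The share of *Grik2* in the 2 libraries was 4.51% and 5.53% on Day 0 and 25.8% and 41.2% on Day 3. Its Day 3 mean of 33.45% was the highest of the *Grik* genes, but its replicates overlapped those of *Grik3* and *Grik5*. The sum itself was 111.3 ± 0.566 FPKM on Day 0 (SD, n = 2), 128.9 ± 10.8 on Day 1, 110.1 ± 7.35 on Day 2 and 67.6 ± 13.9 on Day 3.

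The NMDA receptor genes were close to the limit of measurement on Day 3. *Grin1* (chr2:25291181-25319187, minus strand), the obligatory subunit, was at 2.34 and 2.54 FPKM on Day 0, 1.97 and 2.25 after 1 day, 0.645 and 0.787 after 2 days and 0.720 and 0.325 after 3 days. By transcript length the last 2 values are about 3 fragments and 1 fragment. Day 0 and Day 1 lay above Day 2 and Day 3 in every library. The log2 fold change of FPKM + 1 was −1.19 (SE 0.32, adjusted p = 0.0193), and the ratio of Day 3 to Day 0 from the pooled fragments, about 4 against 26, was 0.207 with an exact 95% interval of 0.0526 to 0.598 that covers counting error only.

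The *Grin1* call was lost without Day 0 replicate 1 (−1.23), Day 0 replicate 2 (−1.15) or Day 3 replicate 2 (−0.999), with adjusted p between 0.0686 and 0.0877, and with quantile normalization (−0.77, adjusted p = 0.0987). Its exons share 1307 bases with those of the antisense gene *Grin1os*, and whether strand was used in counting is not given in the sources used here, so reads of the 2 cannot be told apart.

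*Grin3a* (chr4:49661611-49845744, minus strand), whose product lowers the calcium permeability of NMDA receptors, differed widely between replicates on Day 1 and Day 2. Its levels were 2.73 and 3.41 FPKM on Day 0, 5.11 and 2.34 after 1 day, 0.490 and 1.79 after 2 days and 0.822 and 0.312 after 3 days, from 14 and 14, 21 and 10, 2 and 8, and 3 and 1 fragments. Day 2 and Day 3 were below Day 0 and Day 1 in every library. Day 3 differed from Day 0 by −1.39 on the log2 scale (SE 0.44, adjusted p = 0.0385), and the ratio of Day 3 to Day 0 from 4 and 28 pooled fragments was 0.193 (exact 95% interval 0.0491 to 0.550). This was the weakest call of the 10. It was lost without either Day 0 library (−1.51 and −1.27) or either Day 3 library (−1.63 and −1.15), with adjusted p between 0.0593 and 0.164, and also without the filter on low values (adjusted p = 0.0540), with median ratio scaling (−1.21, adjusted p = 0.0690) and with quantile normalization (−0.97, adjusted p = 0.121).

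The metabotropic receptor genes exchanged places. *Grm5* (chr7:87584168-88134907, plus strand), which drives calcium release through Gq and phospholipase C, was at 27.3 and 25.9 FPKM on Day 0 and at 4.06 and 3.80 on Day 1. It then stood at 5.07 and 2.94 on Day 2 and at 6.20 and 6.81 on Day 3. Every later library was below both Day 0 libraries, and the whole fall came within the first day, from 353 and 268 fragments to 42 and 41. That step was −2.48 on the log2 scale (SE 0.27, adjusted p = 0.00121), the 233rd largest fall of that step among the genes tested. Over the whole course the change was −1.88 (SE 0.27, adjusted p = 0.00107). The Day 3 values were above those of Day 2 without overlap, but the difference of 0.62 did not pass (SE 0.27, adjusted p = 0.339).

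*Grm7* (chr6:110645581-111567230, plus strand), which lowers cyclic AMP and in neurons sits at the transmitter release site, had the largest rise of the 10. Its levels were 0.624 and 1.17 FPKM on Day 0, 4.48 and 8.23 after 1 day, 33.0 and 37.7 after 2 days and 27.0 and 30.7 after 3 days. The fragments behind them were 4 and 6, 23 and 44, 168 and 210, and 123 and 123. Day 0, Day 1 and Day 2 followed each other upward without overlap, and both Day 3 values lay below both Day 2 values.

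Between Day 0 and Day 3 *Grm7* rose by 3.99 on the log2 scale (SE 0.29, adjusted p = 8.42e-05), the 47th largest rise of the 12208 genes tested. The first step was 1.92 (SE 0.29, adjusted p = 0.00402) and the second 2.35 (adjusted p = 0.00974), while the last, −0.28, did not pass (adjusted p = 0.723). The second step lost its call without Day 2 replicate 2 (2.26, adjusted p = 0.106). Its exons share 130 of their 5886 bases with the antisense gene *Gm20387*, from whose reads those in that stretch cannot be told apart.

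*Grm5* and *Grm7* made up most of the metabotropic receptor mRNA summed here. Of the summed FPKM of *Grm2* to *Grm8*, *Grm5* held 97.8% and 93.2% on Day 0, 44.9% and 31.6% after 1 day, 13.2% and 7.19% after 2 days and 18.4% and 17.9% after 3 days. *Grm7* held 2.23% and 4.21% on Day 0, 49.6% and 68.4% after 1 day, 85.7% and 92.3% after 2 days and 80.1% and 80.6% after 3 days. The sum was 27.9 ± 0.0849 FPKM on Day 0 (SD, n = 2), 10.5 ± 2.11 on Day 1, 39.7 ± 1.68 on Day 2 and 35.9 ± 3.13 on Day 3, so its lowest point came on the day when both genes were low.

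The remaining glutamate receptor genes were mostly below the detection limit used here. One of these, *Grin2a*, reached 2.08 FPKM in Day 3 replicate 2 but at most 0.361 in any other library. Of 15 other genes of the receptor families, 5 could be tested between Day 0 and Day 3, and 4 fell while 0 rose (also 0 at an unadjusted p under 0.05 in limma), with a list median of −1.30 on the log2 scale, where 12% of all genes tested were called higher and 26.3% lower. *Grik1*, a kainate subunit that forms channels alone, was at 3.83 and 1.60 FPKM on Day 0 and 0.257 and 0.292 on Day 3 (−1.47, adjusted p = 0.0197). *Grid1*, a delta receptor that acts as a synaptic adhesion protein, was at 9.70 and 11.7 FPKM on Day 0 and 5.62 and 1.83 on Day 3 (−1.43, adjusted p = 0.0177). *Grik3* and *Grik5* changed by −1.30 (adjusted p = 0.0157) and −1.02 (adjusted p = 0.00228).

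The number of these 4 genes called was 1 without Day 0 replicate 1, 2 without Day 0 replicate 2, 1 without Day 3 replicate 2 and between 2 and 4 under the other alternatives. Only *Grik5* kept its call with each library left out. *Grid1* and *Grik3* lost theirs without Day 0 replicate 1 (−1.55 and −1.23), Day 0 replicate 2 (−1.31 and −1.37) or Day 3 replicate 2 (−0.81 and −0.73), and *Grik1* without Day 0 replicate 1 (−1.03) or either Day 3 library (−1.45 and −1.50).

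Auxiliary subunits, which set the surface number and gating of AMPA and kainate receptors, mostly moved downward. Of 19 listed, 15 could be tested, 2 rose and 9 fell, with a list median of −1.31, against 12% of all genes tested called higher and 26.3% lower. *Neto1*, an auxiliary subunit of kainate receptors, was at 31.9 and 38.8 FPKM on Day 0 and 3.12 and 0 on Day 3 (−4.16, SE 0.64, adjusted p = 0.00165). *Nptx2*, a secreted pentraxin that clusters AMPA receptors, was at 8.69 and 8.63 FPKM on Day 0 and 0 and 0.818 on Day 3 (−2.84, SE 0.43, adjusted p = 0.00148). *Olfm1*, a secreted protein found in AMPA receptor complexes, rose from 38.8 and 42.4 FPKM to 143.6 and 147.0 (1.82, SE 0.16, adjusted p = 1.47e-04).

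*Cnih3*, a cornichon that slows AMPA receptor closing, was at 0.258 and 0.323 FPKM on Day 0 and 1.09 and 3.44 on Day 3 (1.24, adjusted p = 0.0474). Its call was lost without any single library but Day 3 replicate 1, with values between 0.70 and 1.28. The number of auxiliary genes called lower was 6 to 10 when a library was left out.

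Scaffold and trafficking proteins, which anchor receptors below the membrane, went both ways. Of 21 listed, 20 were in the table and 16 could be tested, and 3 rose while 5 fell (list median −0.67). These numbers were close to the shares over all genes tested, 12% higher and 26.3% lower, and the difference was not tested. *Arc*, an immediate early gene whose product drives AMPA receptor endocytosis, was at 0 and 0.533 FPKM on Day 0 and 14.7 and 15.0 on Day 3 (3.68, SE 0.48, adjusted p = 7.53e-04). *Dlg1*, the scaffold SAP97, rose from 15.0 and 13.0 FPKM to 71.4 and 74.3 (2.30, SE 0.14, adjusted p = 5.49e-05). The scaffold genes *Dlgap2* and *Dlgap3* changed by −1.84 (adjusted p = 0.0219) and −1.55 (adjusted p = 0.00675). The call of *Dlgap2* was lost without Day 0 replicate 2 (−1.44) or Day 3 replicate 2 (−1.59). The number called lower was 2 without Day 0 replicate 1, 1 without Day 0 replicate 2, 1 without Day 3 replicate 2 and 2 with median ratio scaling.

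Among genes that carry or metabolise glutamate and glutamine, the part called lower was close to that over all genes tested (26.3%), of which 12% were called higher. Of 20 listed, 13 could be tested, 0 rose in limma (also 0 at an unadjusted p under 0.05) and 3 fell (list median −0.43), and with median ratio scaling 3 were called higher and 2 lower. The glutamine transporter gene *Slc38a1* was at 38.0 and 30.3 FPKM on Day 0 and 6.81 and 4.29 on Day 3 (−2.44, adjusted p = 0.00236). The neutral amino acid transporter gene *Slc1a4* was at 18.6 and 21.8 FPKM on Day 0 and 8.87 and 7.71 on Day 3 (−1.19, adjusted p = 0.00257). One gene of this list was called higher without Day 3 replicate 1 and likewise without Day 3 replicate 2.

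Of 3 adenosine deaminase genes, 2 could be tested. *Adarb1*, whose product edits the *Gria2* transcript at the site that controls calcium permeability, was at 4.57 and 3.72 FPKM on Day 0 and 0.839 and 0.955 on Day 3 (−1.44, SE 0.30, adjusted p = 0.00666). Editing itself cannot be read from expression values. *Adar*, the other gene tested, did not pass (−0.12, SE 0.21, adjusted p = 0.681).

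The genes of Gq signalling, downstream of *Grm5*, went both ways, in numbers close to the 12% of all genes tested called higher and 26.3% called lower. Of 14 listed, 11 could be tested, 2 were called higher, 3 were called lower and 6 were not called. At an unadjusted p under 0.05 in limma 3 were higher and 3 lower. The list median was 0.38. *Itpr2*, a calcium release channel of the endoplasmic reticulum, was at 11.7 and 13.7 FPKM on Day 0, peaked at 114.4 and 102.9 after 2 days and stood at 65.9 and 43.8 after 3 (2.00 between Day 0 and Day 3, SE 0.26, adjusted p = 7.38e-04). The phospholipase C genes *Plcb3* and *Plcb4* changed by −1.52 (adjusted p = 0.00140) and −1.30 (adjusted p = 0.0220), and *Gnaq*, the Gq alpha subunit, by 0.46 (adjusted p = 0.0450).

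The *Gnaq* call was kept only without a Day 1 library and was lost without any of the other 6, with values between 0.38 and 0.53, and that of *Plcb4* was lost without Day 0 replicate 1 (−1.21), Day 0 replicate 2 (−1.40) or Day 3 replicate 2 (−1.19). The number of this list called lower was 1 without either Day 0 library, and the number called higher was then 1.

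**Figure D4:**
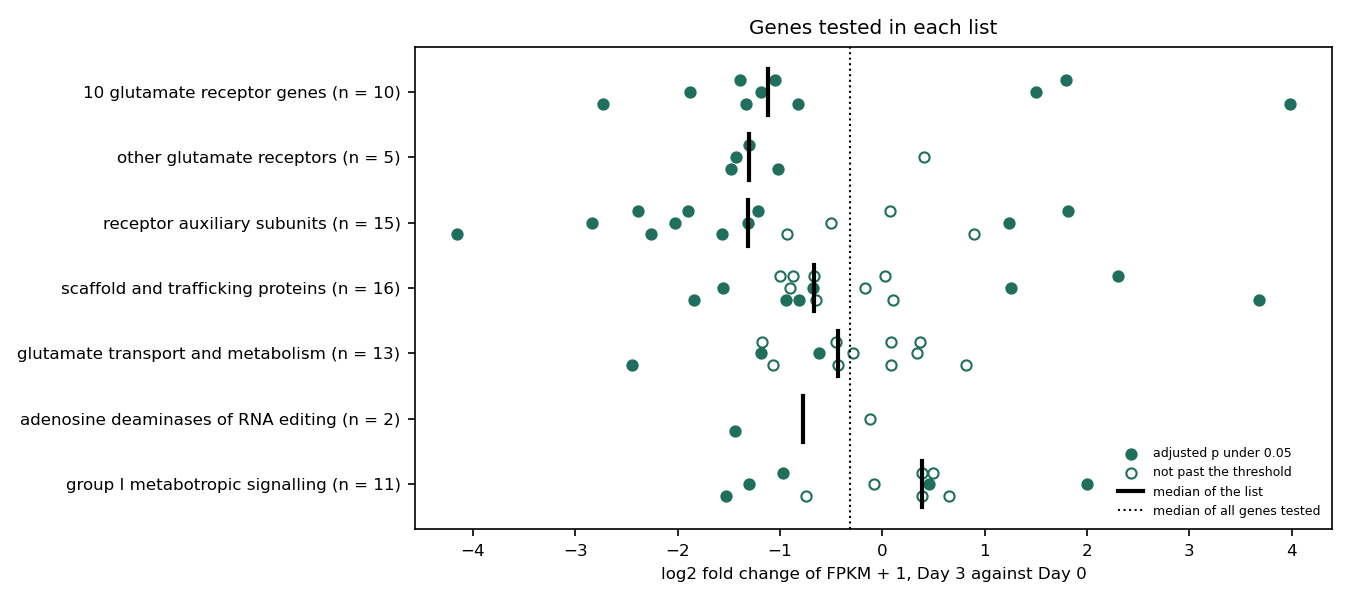
Log2 fold change of FPKM + 1 between Day 0 and Day 3 (horizontal axis) for each gene tested of the 10 receptor genes and of 6 related lists, with filled points for an adjusted p under 0.05, a bar at each list's median and a dotted line at the median of all genes tested (−0.31). The auxiliary subunits lie mostly to the left, with a median of −1.31, and the Gq signalling genes have points on both sides of 0, with a median of 0.38.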

How the data were processed

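The authors prepared stranded mRNA libraries from total RNA and deposited 1 table of FPKM values for 23427 genes in 8 libraries, unpooled. The submitters' processing notes name mm10. The aligner, gene models and strand setting are not given in the sources used here. Groups and replicate numbers came from the sample titles. The paper's knockdown and knockout experiments were not analysed here.

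The 12208 genes that reached 1 FPKM in 2 or more libraries entered the test, on log2(FPKM + 1) with limma 3.58.1 in R 4.3.3 (lmFit, eBayes with a trend), all 8 libraries in 1 fit with day as a factor, and Benjamini-Hochberg adjustment over all genes tested. Fold changes on this scale understate those of low genes. The script was tested on simulated data. Alternatives were a pseudocount of 0.1, no filter, quantile normalization, median ratio scaling, a replicate block, no trend in eBayes, leaving out each library, and fitting only the 2 days of a comparison.

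Depth came from the spacing of low FPKM values and the lengths of 286 genes with 1 transcript. For 5 genes (*Gria3*, *Grik4*, *Grin3a*, *Grm5* and *Grm7*) all 8 values were whole multiples of a step within 0.05, taken as 1 fragment, and the others were estimated from coding transcript lengths. Coordinates are from GENCODE M21 (GRCm38) and promoters from RefSeq. Python 3.11.15 with pandas 2.3.3, numpy 2.4.6, scipy 1.17.1 and matplotlib 3.10.9 did the rest.

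All 10 receptor genes are named. Of each related list, up to 2 genes of the largest rise and 2 of the largest fall past the threshold are named. Genes with overlapping replicates were left out. Also named are the 5 genes most correlated with each of the 2 most abundant of the 10 receptor genes. The receptor genes and lists were chosen with earlier results of these data known. Results that need a withheld item are not reported here.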

Additional observations from a re-analysis of the deposited data

How the results depend on the processing

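Of the 70 fold changes of the 10 genes between Day 0 and Day 3 under 7 alternatives, 64 kept direction and call, 6 kept direction without the call and 0 reversed, and of 80 with a library left out 66 kept both and 14 lost the call. With a library left out, the number of the 10 called ranged from 5 to 10 (Day 0 to Day 3), 2 to 3 (first step), 0 to 2 (second), 0 to 1 (last) and 4 to 9 (F test, with 5 without Day 0 replicate 1 and 4 without Day 0 replicate 2), and the lone library of that day was assumed to vary like the others. In the last step the gene called without Day 3 replicate 1 was *Gria4* (−1.60). A fit of only the 2 days compared called 1 gene in the first step (*Grm5*) and 0 in the second, with fewer samples behind the spread. In that fit *Gria4* lost its call between Day 0 and Day 3 (adjusted p = 0.0751). Directions reversed only in steps that were not called. *Grm5* in the second step was −0.01, and 0.14 with median ratio scaling and 0.24 with quantile normalization, and *Grin1* in the first step became 0.12 with quantile normalization. With a library left out, the first step ranged from −0.053 to 0.13 for *Gria1* and from −0.28 to 0.59 for *Grin3a*, the second from −0.32 to 0.30 for *Grm5*, and the last from −0.032 to 0.39 for *Gria2*, −0.37 to 0.0049 for *Grin1* and −0.85 to 0.053 for *Grin3a*. The cause was not tested. The replicate block, which pairs libraries by the replicate number of the labels, changed no call of the 10 genes (*Gria4* −1.05, SE 0.24, adjusted p = 0.00789). Differences between same-numbered libraries correlated at 0.164 to 0.285 over the 6 pairs of days, and nothing says that a number marks a shared preparation. The block moved the number of all genes called from 475 to 803 in the second step and from 36 to 163 in the last. Those numbers were also 247 and 0 without the filter, 121 and 0 without a trend, and 0 and 0 in the fit of 2 days, and the last was 8 with a pseudocount of 0.1. With a library left out they were 11 to 445 and 0 to 223, the first step gave 583 to 1585 against 1538, and the whole course 2769 to 4548 against 4667. The related lists were run under the same alternatives after the data had been seen: *Grik1* (−2.79) and *Cnih3* (2.40) lost their calls with a pseudocount of 0.1, *Grik1*, *Grid1* and *Plcb4* with quantile normalization (−1.09, −1.06 and −0.88), *Grid1*, *Cnih3*, *Gnaq* and *Grik3* in the fit of 2 days, and *Gnaq* without a trend. Depth limits *Grin1*, *Grin3a* and the early values of *Grm7* and *Gria1*, which rest on few fragments.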

Other observations

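The genes whose levels followed those of the 2 most abundant receptor genes most closely were not neurotransmitter genes. Over the 8 libraries, the 5 genes with the highest Pearson correlation of log2(FPKM + 1) with *Gria2* were *Nob1* (0.982), *Zfp945* (0.981), *Jmjd1c* (0.981), *Ldhb* (0.981) and *Ttc3* (0.980). *Ldhb*, a lactate dehydrogenase subunit, had 121.3 and 156.0 FPKM at Day 0, against 39.8 and 30.8 FPKM at Day 3. For *Gria4* they were *Ptpn12* (0.988), *Tubb2b* (0.983), *Asap1* (0.982), *Sema6c* (0.981) and *Mex3b* (0.980). *Tubb2b*, a beta-tubulin of migrating and growing neural cells, had 623.7 and 663.1 FPKM at Day 0, 849.7 and 876.6 FPKM after 1 day and 463.0 and 237.4 FPKM after 3. Like *Gria4*, these 5 genes, picked because they followed it over the same 8 libraries, had their lowest value in Day 3 replicate 2. The points share days, depth and replicate numbers, so these values are a description with no test.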
